A study of Mus musculus with 6 samples.

Results

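The diacylglycerol kinases and the protein kinases D were described by 10 genes in a line of cultured mouse beta cells, MIN6-4N, which derives from an insulinoma. The genes were Dgka, Dgkb, Dgkd, Dgke, Dgkg, Dgki and Dgkz, 7 diacylglycerol kinases, and Prkd1, Prkd2 and Prkd3, the 3 protein kinases D. The 2 families were chosen on the measured differences between the clones, where Prkd3 ranked 19 and Dgkb 24 by size among all genes. They are 10 of the 20416 genes that the array annotation names with 1 symbol, and each was read by 13 to 35 probe sets, 249 in all. No probe set with several symbols named any of them. The study had 6 Affymetrix arrays in 2 groups. The Meg3 group was 3 independent cultures of 1 clone that carries pcDNA3.1 with mouse Meg3, an imprinted long non-coding RNA. The vector group was 3 independent cultures of 1 clone that carries pcDNA3.1 alone. Both clones came through nucleofection, 5 weeks of selection in G418 at 750 µg/ml and culture in G418 at 500 µg/ml with 15% serum. Since each group is 1 clone, an effect of Meg3 and any other difference between the clones cannot be told apart, and errors measure the spread between cultures. The titles and the extraction protocol give the Meg3 clone different numbers, and a sort of the cells appears in the descriptions and in no protocol.

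Diacylglycerol is a membrane lipid that phospholipase C makes from phosphoinositides. It recruits proteins with a C1 domain, among them protein kinases C and D. Diacylglycerol kinases end that signal by phosphorylating the lipid to phosphatidic acid, itself a signal. Protein kinases D act downstream of diacylglycerol and protein kinase C, and at the trans-Golgi network they control the fission of secretory carriers. In beta cells protein kinase D1 is known for its part in insulin granule formation and secretion.

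Meg3 itself read 7.24, 7.91 and 7.53 (log2) in the Meg3 cultures, against 5.63, 6.00 and 5.88 in the vector cultures (difference 1.72 on the log2 scale, SE 0.19; adjusted p = 0.00756 by limma). The call was lost without Meg3 replicate 3 (difference 1.74, adjusted p = 0.0666). Vector replicate 2 and Meg3 replicate 1 stood apart: measured from the median of the remaining arrays, their probe sets scattered with an SD of 0.86 and 0.64 on the log2 scale, and those of the 4 others with 0.43 to 0.48. Values below are therefore also given without those arrays where it matters. Of 28 measured marker genes of beta, other islet, exocrine, endothelial, immune and stromal cells, 0 were called by limma. Unadjusted p-values under 0.05 were found for 1 higher (Ucn3) and 2 lower (Slc2a2 and Spp1), where 2.68% of all genes were higher and 4.28% lower at that level. In 8 of the 28 (28.6%) the groups did not overlap, 3 higher and 5 lower, beside 12.8% of all genes. Among the 5 were Slc2a2, the glucose transporter gene of beta cells (difference -0.27, SE 0.11), the beta cell transcription factor gene Mafa (-0.24, SE 0.12) and the ductal marker Spp1 (-0.48, SE 0.12). Sst (-0.14, SE 0.11) and Pdgfra (-0.26, SE 0.13) were also lower. The higher ones were Ucn3 (0.35, SE 0.15), Hhex (0.29, SE 0.14) and Cdh5 (0.15, SE 0.11). Spp1 was bright, at 11.85 in the Meg3 clone and 12.33 in the vector clone. The ductal markers Krt19 and Sox9 were dim and differed by 0.17 (SE 0.15) and 0.11 (SE 0.13), with overlap. These genes were named after their values were seen, and the part of these markers in the results was not tested. The mean over the 9 beta cell markers ran from 9.86 to 9.93 over the Meg3 arrays and from 9.89 to 9.96 over the vector arrays. The beta cell markers Ins2, Iapp, G6pc2 and Slc30a8 averaged above 12 in both clones. So did Gcg, the alpha cell hormone gene, at 12.66 ± 0.11 in the Meg3 clone and 12.82 ± 0.12 in the vector clone (SD, n = 3 each), while the beta cell marker Ucn3 was dim at 5.75 in the Meg3 clone and 5.40 in the vector clone.

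Dgkb and Prkd1 were higher in the Meg3 clone and Prkd3 was lower. Dgkb was 3.25-fold and Prkd1 1.90-fold higher, and Prkd3 was 3.35-fold lower. For these 3 genes, and for Dgke, the 3 Meg3 cultures lay wholly outside the range of the 3 vector cultures, so that 3 of the 10 were higher and 1 was lower without overlap. Across all genes 12.8% did not overlap, 6.41% higher and 6.39% lower. By limma over all 20416 genes (Benjamini-Hochberg adjusted p under 0.05), 2 of the 10 were called higher and 1 lower, where 0.666% of all genes were called, 0.201% higher and 0.465% lower. Because the families were chosen on this comparison, nothing is read from those counts, and the members' differences are given as a description with no p-value. The same holds for every call of a member named below, with all arrays or with fewer. Such calls describe how far the values depend on single arrays and lend no support to a difference. The 10 differences had a median of -0.01 (log2), and that of all genes was 0.01. In whole cultures, a change in the share of cells that express a gene and a change in RNA per cell cannot be told apart.

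**Figure D1:**
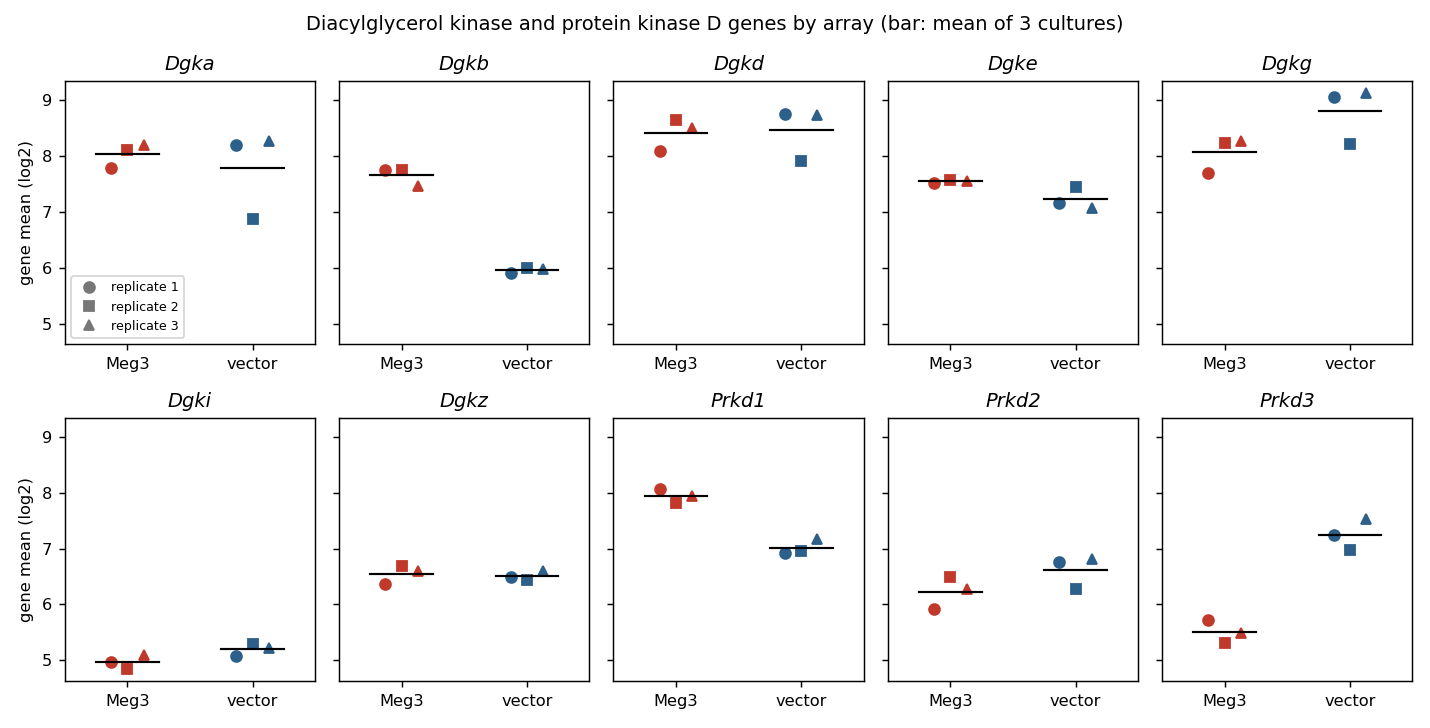
Gene means (log2, mean of all probe sets of a gene) of the 10 genes on each of the 6 arrays, with the Meg3 cultures in red at the left of each panel and the vector cultures in blue at the right. Each point is 1 culture, shaped by replicate, and the bar is the mean of 3. Dgkb and Prkd1 sit higher in all Meg3 cultures and Prkd3 lower, and Dgka, Dgkd and Dgkg have a low point in vector replicate 2.

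Promoter windows are shown for the genes called. Prkd3 has 2 start sites in RefSeq, and Dgkb and Prkd1 have 1 each. Several starts are not particular to Prkd3: of the members not called, Dgka has 4, and Dgkz and Prkd2 have 2 each. Each window is 300 bases, from 250 before the start to 50 after it (RefSeq, GRCm38.p6), written 5′ to 3′ on the gene's strand. The Dgkb window is chr12:37879924-37880223 on the plus strand and the Prkd1 window chr12:50649200-50649499 on the minus strand. The Prkd3 windows are chr17:79020767-79021066, here start 1, and chr17:79008456-79008755, here start 2, both on the minus strand. Capitals mark the GC box GGGCGG on either strand, whose copies may overlap.
Dgkb: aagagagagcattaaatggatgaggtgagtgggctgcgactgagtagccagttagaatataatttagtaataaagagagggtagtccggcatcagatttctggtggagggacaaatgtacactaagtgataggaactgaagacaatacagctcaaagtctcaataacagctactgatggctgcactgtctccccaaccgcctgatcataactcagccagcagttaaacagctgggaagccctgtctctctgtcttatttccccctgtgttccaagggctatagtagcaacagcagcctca
Prkd1: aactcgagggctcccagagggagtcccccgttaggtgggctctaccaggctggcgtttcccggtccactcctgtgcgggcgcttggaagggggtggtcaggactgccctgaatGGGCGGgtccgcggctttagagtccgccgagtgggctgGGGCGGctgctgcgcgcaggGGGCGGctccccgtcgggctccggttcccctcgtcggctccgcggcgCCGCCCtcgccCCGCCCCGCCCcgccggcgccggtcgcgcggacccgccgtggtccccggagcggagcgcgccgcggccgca
Prkd3 start 1: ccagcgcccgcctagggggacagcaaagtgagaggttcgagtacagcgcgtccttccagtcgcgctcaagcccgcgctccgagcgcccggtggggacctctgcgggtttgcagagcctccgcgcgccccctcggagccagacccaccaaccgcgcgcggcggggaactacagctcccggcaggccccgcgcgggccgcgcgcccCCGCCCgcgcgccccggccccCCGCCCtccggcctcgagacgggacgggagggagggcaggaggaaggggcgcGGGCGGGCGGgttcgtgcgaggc
Prkd3 start 2: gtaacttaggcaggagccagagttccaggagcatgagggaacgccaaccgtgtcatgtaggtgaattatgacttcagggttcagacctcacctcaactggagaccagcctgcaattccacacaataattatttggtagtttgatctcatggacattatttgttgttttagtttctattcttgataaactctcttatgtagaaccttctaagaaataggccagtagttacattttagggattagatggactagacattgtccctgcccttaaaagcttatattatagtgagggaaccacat

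The windows fall into 2 kinds of base composition. Prkd1 held 43 CpG dinucleotides and 6 GC boxes, and Prkd3 start 1 held 45 CpGs and 4 GC boxes, more than 97.4% and 98.1% of the 32851 windows in the table. Dgkb held 3 CpGs and Prkd3 start 2 held 2, with no GC box in either, beside a median of 7 over all windows. A GC box was in 35.7% of all windows. None of the 4 held TGANTCA (7.81% of all windows), where N is any base, a looser form of the phorbol ester response element. Nor did any hold TGACGTCA, the cyclic AMP response element (1.79%), or the TATA box TATAAA (13.6%). Either strand was searched. The windows of the other 7 members held 4 to 43 CpGs. Which start the cells used was not measured.

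Among the calcium-regulated diacylglycerol kinases with EF hands, Dgkb was higher in the Meg3 clone, and Dgkg read lower there with overlap at 1 vector culture. Dgka, the other kinase of that class, overlapped, and its sign changed without vector replicate 2. Dgkb, the beta isoform, best known in brain, had gene means of 7.76, 7.76 and 7.46 (log2) in the Meg3 cultures, against 5.91, 5.99 and 5.97 in the vector cultures. The groups were far apart and each was tight, with a log2 difference of 1.70 (SE 0.13). Its mean lay above the median of all gene means (6.66) in the Meg3 clone and below it in the vector clone. Leaving out any 1 array kept the difference between 1.65 and 1.80, and Dgkb was called in all 6 such fits.

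All 28 Dgkb probe sets had positive differences, and in 20 of them the groups did not overlap; over all probe sets, 6% were higher without overlap. The sizes were unequal, from 0.28 to 4.32. Probe sets are named here by their place in the order of the array's own numbers. In the order of those numbers, 97.3 to 99.4% of successive genes on the 20 chromosomes had the higher start. Strand was not used in that count. Over whole chromosomes, number and start correlated only at a Spearman rho of 0.45 to 0.55. Exon positions within a gene were not used here. Numbers 3 to 8 differed by 2.53 to 4.32, and the first 14 had a median of 2.13 against 0.99 for the last 14. Number 3 read 8.39, 8.13 and 8.29 in the Meg3 cultures, against 4.42, 3.43 and 4.01 in the vector cultures. It was 1 of the 2 member probe sets called by limma when probe sets were tested singly, where 0.00377% of all 212097 were called. Neither of the 2 was called when any 1 array was left out. The brightest, number 9, read 9.45, 9.98 and 10.14, against 8.01, 8.51 and 8.52, a smaller difference of 1.51 (SE 0.27). Number 14 read 8.23, 8.23 and 8.75 in the Meg3 cultures, against 8.12, 8.01 and 7.86 in the vector cultures, a difference of 0.41 (SE 0.23).

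**Figure D2:**
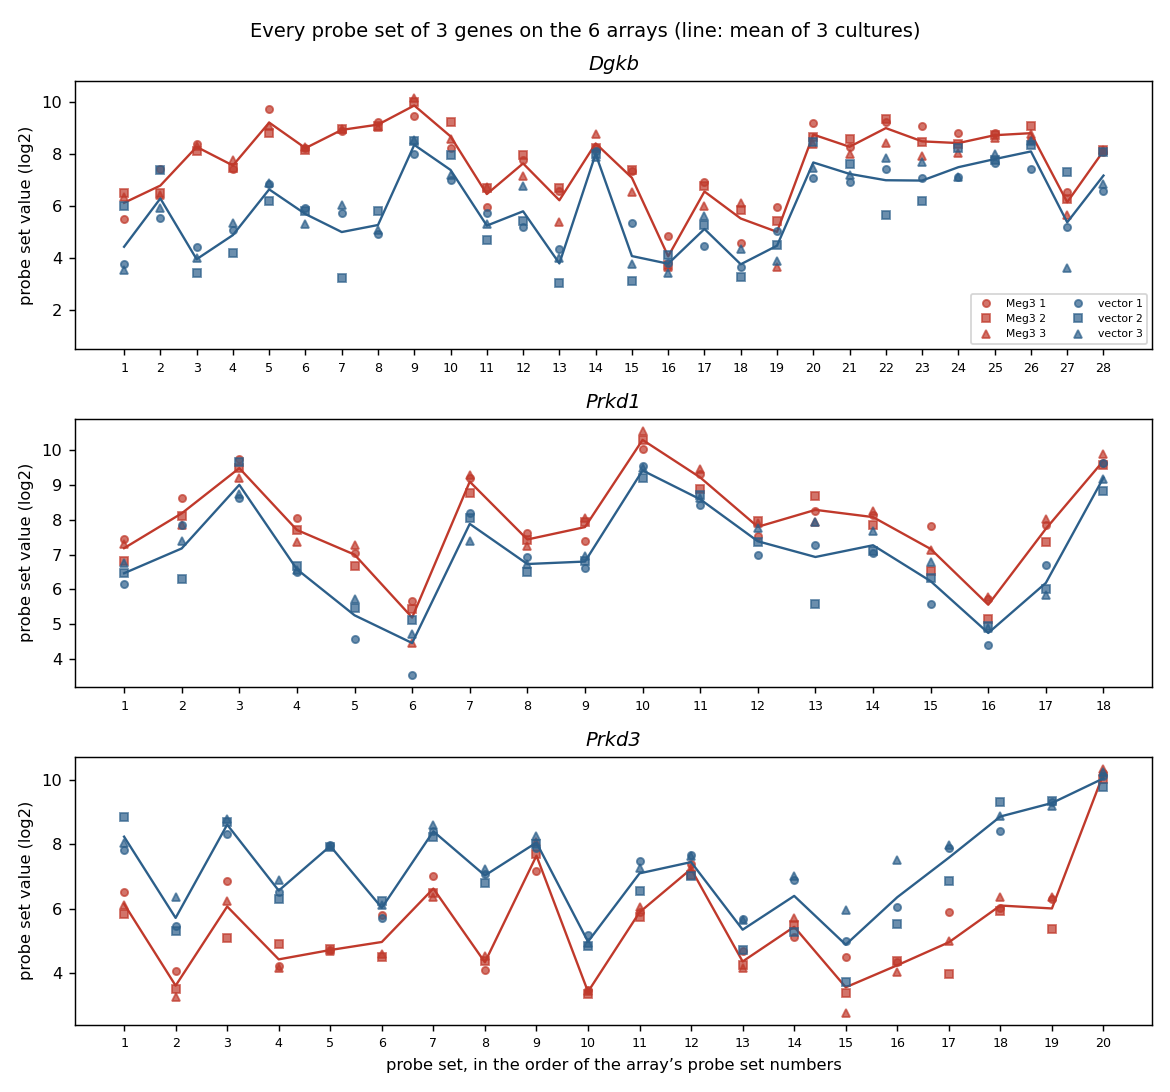
Values (log2) of every probe set of Dgkb, Prkd1 and Prkd3 in the order of the array's probe set numbers, with Meg3 cultures in red and vector cultures in blue. Points are single cultures, and the lines join the means of 3. Dgkb is widest apart at numbers 3 to 8, Prkd1 is shifted by 0.42 to 1.75 along its 18 probe sets, and the Prkd3 lines meet at number 20 and come close at numbers 9 and 12.

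Dgkg, the gamma isoform, held the brightest probe set of all members. Its gene means were 7.70, 8.23 and 8.26 (log2) in the Meg3 cultures, against 9.05, 8.22 and 9.13 in the vector cultures. The groups overlapped only through vector replicate 2, which read 0.87 below the other vector cultures. The log2 difference was -0.73 (SE 0.26), and Dgkg was not called with 6 arrays. Without vector replicate 2 it was -1.02 (SE 0.18) and called, and without both arrays that stood apart it was -0.84 (SE 0.10) and called. All 26 Dgkg probe sets had negative differences, from -1.16 to -0.25, and in 11 of them the groups did not overlap (5.61% of all probe sets were lower without overlap). The brightest, number 3, read 11.93, 11.83 and 12.25 in the Meg3 cultures, against 12.18, 12.40 and 12.39 in the vector cultures, a difference of -0.32 (SE 0.21).

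Dgka, the alpha isoform, known for restraining signalling in T cells, read 7.78, 8.11 and 8.19 in the Meg3 cultures, against 8.19, 6.87 and 8.27 in the vector cultures. The groups overlapped, and 1 culture set the sign. The log2 difference of 0.25 (SE 0.35) became -0.20 without vector replicate 2. That culture was the lowest of the 3 vector cultures in 22 of the 26 Dgka probe sets, and in 0 of the 26 did the groups stay apart.

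Dgkd, the delta isoform, which carries a pleckstrin homology and a sterile alpha motif domain, showed the same low culture. It read 8.09, 8.65 and 8.51 in the Meg3 cultures, against 8.76, 7.91 and 8.73 in the vector cultures (difference -0.05, SE 0.25). Vector replicate 2 was the lowest vector culture in 22 of 32 probe sets, and Meg3 replicate 1 the lowest Meg3 culture in 25 of 32. Without both arrays the difference was -0.17. Of the 32 probe sets, 14 had positive and 18 negative differences, and the brightest, number 3, differed by 0.18 (SE 0.19).

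Dgke, the epsilon isoform, prefers diacylglycerol with an arachidonoyl chain and lacks the regulatory domains of the others. It was slightly higher in the Meg3 clone. Its gene means were 7.52, 7.57 and 7.56 in the Meg3 cultures, against 7.15, 7.45 and 7.08 in the vector cultures. The groups did not overlap, by a small margin at vector replicate 2, and the log2 difference was 0.32 (SE 0.13). It was not called with 6 arrays. Without both arrays that stood apart it was 0.45 (SE 0.10) and called. Of its 13 probe sets, 12 had positive differences, up to 0.83 for number 7. Without overlap 4 were higher, as were 6% of all probe sets.

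Dgki and Dgkz, the iota and zeta isoforms with ankyrin repeats, were not called, and their groups overlapped. Dgki was the dimmest member, at 4.98, 4.84 and 5.09 in the Meg3 cultures, against 5.08, 5.29 and 5.22 in the vector cultures, overlapping at a single pair (difference -0.23, SE 0.12). Only 3 of its 34 probe sets exceeded the median of all probe sets (7.22), so most of its signal was dim. Its probe sets disagreed, with 13 positive and 21 negative, from -2.37 to 1.21. Dgkz read 6.37, 6.68 and 6.59 in the Meg3 cultures, against 6.50, 6.43 and 6.60 in the vector cultures (difference 0.04, SE 0.13). Beneath that even mean its 35 probe sets ran from -1.45 for number 12 to 1.18 for number 25, both without overlap. In all, 11.4% of the 35 were higher and 2.86% lower without overlap, beside 6% and 5.61% of all probe sets. Unlike those of the other members, its probe set numbers do not form an unbroken run. Number 12 read 4.65, 4.41 and 4.38 in the Meg3 cultures, against 5.90, 5.52 and 6.38 in the vector cultures. Number 25 read 7.80, 8.50 and 8.64, against 7.67, 6.01 and 7.69, where vector replicate 2 was the lowest.

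**Figure D3:**
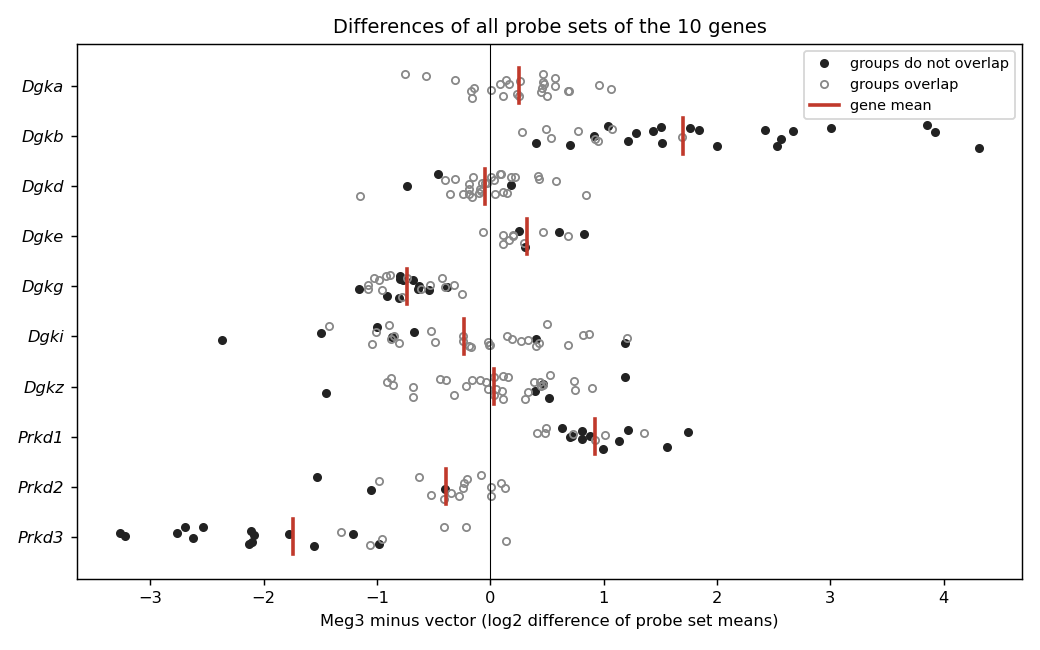
Differences (Meg3 minus vector, log2) of the 249 probe sets of the 10 genes, 1 row a gene, with vertical scatter for legibility. Filled points are probe sets whose groups did not overlap, open points are the rest, and the red bar is the gene's mean. Every Dgkb and Prkd1 point lies above 0 and every Dgkg point below it, 1 Prkd3 point lies above 0, and the Dgki and Dgkz points spread to both sides.

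Of the 3 protein kinase D genes, Prkd1 was called higher in the Meg3 clone, Prkd3 was called lower, and Prkd2 was not called. Prkd1, which encodes the founding member of the family, read 8.06, 7.82 and 7.94 (log2) in the Meg3 cultures, against 6.92, 6.95 and 7.18 in the vector cultures. The groups did not overlap, and the log2 difference was 0.92 (SE 0.13). Prkd1 was called with 6 arrays and without vector replicate 2, and in no fit without any other single array, while its size stayed between 0.86 and 1.00. All 18 probe sets had positive differences, from 0.42 to 1.75, and 11 were higher without overlap (6% of all probe sets were). The spread of those differences was the smallest of the 3 genes called, with an SD of 0.37 over probe sets against 1.10 for Dgkb and 0.98 for Prkd3. Its brightest probe set, number 10, read 10.05, 10.30 and 10.56, against 9.56, 9.21 and 9.49, and its difference of 0.88 (SE 0.22) was close to the gene's.

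Prkd2, the isoform known from lymphocytes and endothelium, read 5.92, 6.48 and 6.28 in the Meg3 cultures, against 6.76, 6.28 and 6.82 in the vector cultures. The groups overlapped, and the log2 difference was -0.39 (SE 0.20). Its mean was under 6.66, the median gene mean, in either clone. Of its 17 probe sets, 13 had negative differences and 3 were lower without overlap (5.61% of all probe sets were). These were number 1 (-1.52, SE 0.49), number 8 (-1.05, SE 0.33) and the brightest, number 6 (-0.40, SE 0.21). Vector replicate 2 and Meg3 replicate 1 read below the others of their groups by 0.51 and 0.46, and without both the difference was -0.41.

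Prkd3, the isoform that lacks the PDZ-binding end of the others, had the most negative difference of the members. It read 5.72, 5.31 and 5.48 in the Meg3 cultures, against 7.24, 6.97 and 7.52 in the vector cultures. All Meg3 cultures lay more than 1 log2 unit below all vector cultures (difference -1.74, SE 0.17). It was called in 4 of 6 fits without 1 array and not without Meg3 replicate 2 or 3. Without both arrays that stood apart the difference was -1.99 (SE 0.12).

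The Prkd3 probe sets disagreed in size and, for the brightest, in direction. Of the 20, 19 had negative differences, 10 of them of at least 2 log2 units. Without overlap 14 were lower, as were 5.61% of all probe sets. The widest, number 19, read 6.29, 5.36 and 6.38 in the Meg3 cultures, against 9.33, 9.34 and 9.17 in the vector cultures (difference -3.27, SE 0.31). Number 5 read 4.72, 4.75 and 4.70, against 7.99, 7.91 and 7.94, and was the other member probe set called singly. These 2 were 9.64-fold and 9.35-fold lower.

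The neighbour of number 19 in that order behaved otherwise. Number 20, the last and brightest, read 10.20, 10.01 and 10.34 in the Meg3 cultures, against 10.11, 9.78 and 10.24 in the vector cultures. Its difference was 0.14 (SE 0.22) and the groups overlapped. Number 12 read 7.39, 7.04 and 7.28, against 7.68, 7.03 and 7.64 (difference -0.21, SE 0.25), and number 9 read 7.17, 7.69 and 8.08, against 7.89, 8.03 and 8.25 (-0.41, SE 0.28). In these 3 probe sets, all brighter than 7 in every culture, the groups overlapped. The other 3 with overlap (numbers 6, 14 and 15) differed by -1.06, -0.96 and -1.32 with wide spread. Without number 20 the mean of the other 19 differences was -1.84, and taking the brightest probe set as the gene would give 0.14. Where number 20 lies in the gene, and whether it reads Prkd3 alone, was not tested.

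**Figure D4:**
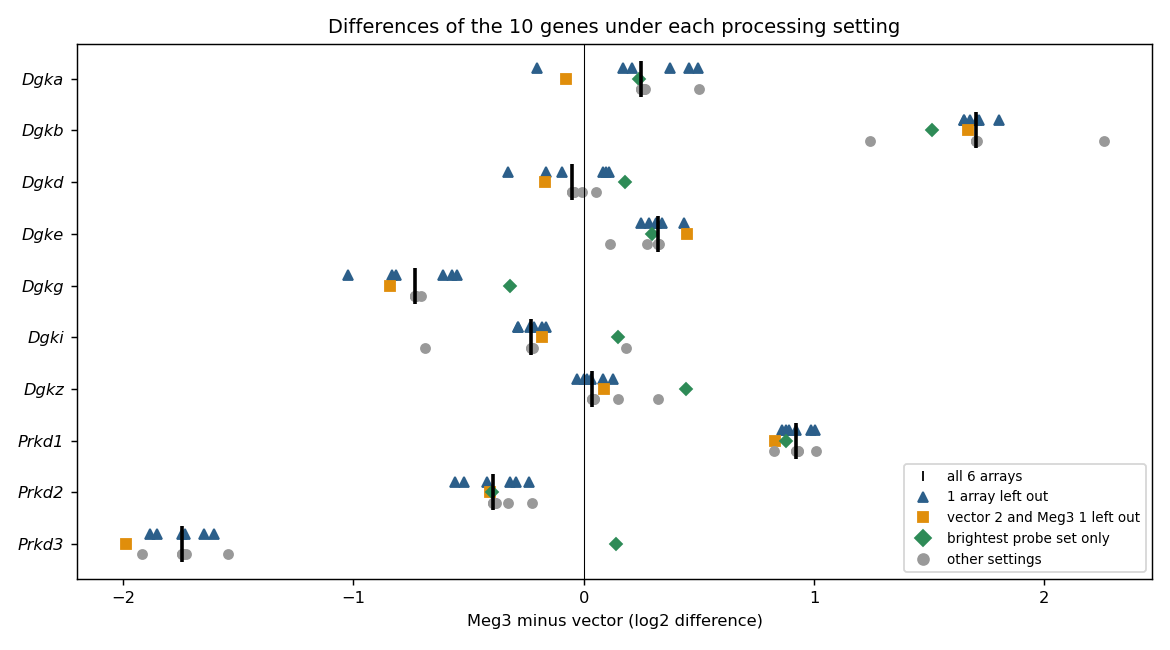
Differences (Meg3 minus vector, log2) of the 10 genes with all 6 arrays (black bar) and under each alternative processing setting. Triangles leave out 1 array, squares leave out vector replicate 2 and Meg3 replicate 1, diamonds use each gene's brightest probe set, and grey points are the remaining settings. Dgkb and Prkd1 stay above 0 throughout, Prkd3 stays below -1.5 except for its brightest probe set at 0.14, and Dgka, Dgkd, Dgki and Dgkz cross 0.

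The rest of the diacylglycerol pathway differed little. Of 67 measured genes in 6 lists, 1 was called higher and 0 lower by limma, or 1.49%, beside 0.666% of all genes. Unadjusted p-values under 0.05 were found for 2 higher and 4 lower of the 67, beside the 2.68% and 4.28% of all genes. In 9 of the 67 (13.4%) the groups did not overlap, 5 higher and 4 lower, beside 12.8% of all genes. The median difference was 0.01.

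The gene called was Plcb1, a phospholipase C that Gq-coupled receptors activate and that makes diacylglycerol. It read 8.13, 8.09 and 7.96 in the Meg3 cultures, against 7.14, 6.63 and 7.19 in the vector cultures. The groups did not overlap, and Plcb1 was 2.11-fold higher (difference 1.08, SE 0.17; adjusted p = 0.0354 by limma). Of its 38 probe sets, 35 had positive differences. The call was lost when vector replicate 1 (adjusted p = 0.0874) or 3 (0.0874), or Meg3 replicate 1 (0.154), 2 (0.197) or 3 (0.177) was left out, and kept without vector replicate 2 (0.00806), with differences between 0.90 and 1.18. The other 12 phospholipase C genes lay between -0.22 and 0.31.

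The 4 other kinases of the family, Dgkh, Dgkq, Dgkk and the mitochondrial acylglycerol kinase gene Agk, lay between -0.06 and 0.19, with 0 called by limma and 0 at an unadjusted p under 0.05. The widest were Dgkk at 0.19 (SE 0.13) and Agk at -0.06 (SE 0.13). Of 8 protein kinase C genes 0 were called by limma. At an unadjusted p under 0.05, 1 was lower, the atypical isoform gene Prkci (-0.29, SE 0.12), named after its value was seen. The widest were Prkcd, a calcium-independent isoform, at -0.51 (SE 0.24) and Prkca, a calcium-dependent isoform, at 0.47 (SE 0.22). Both were opposite in sign, and in both the groups overlapped.

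Among 10 genes of other families that include C1-domain proteins (Ras activators, chimaerins and the Unc13 vesicle priming factors), 0 were called by limma. None had an unadjusted p under 0.05. The widest were Unc13b at 0.22 (SE 0.26) and Unc13a at 0.19 (SE 0.23). Of 21 enzymes of diacylglycerol and phosphatidic acid metabolism 0 were called by limma, with 1 lower at an unadjusted p under 0.05. The widest were Plpp2 (Ppap2c on the array), a lipid phosphate phosphatase, at -0.51 (SE 0.20) and the phospholipase D gene Pld1 at -0.34 (SE 0.24). Of 11 targets and partners of protein kinase D 0 were called by limma. Unadjusted p-values under 0.05 were found for Rin1, higher, named after its value was seen, and for Cttn and Cert1, lower. The widest were the cortactin gene Cttn at -0.50 (SE 0.11; adjusted p = 0.121) and the ceramide transfer protein gene Cert1 (Col4a3bp on the array) at -0.36 (SE 0.14; adjusted p = 0.634). For both, all 3 Meg3 cultures lay below all 3 vector cultures.

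**Figure D5:**
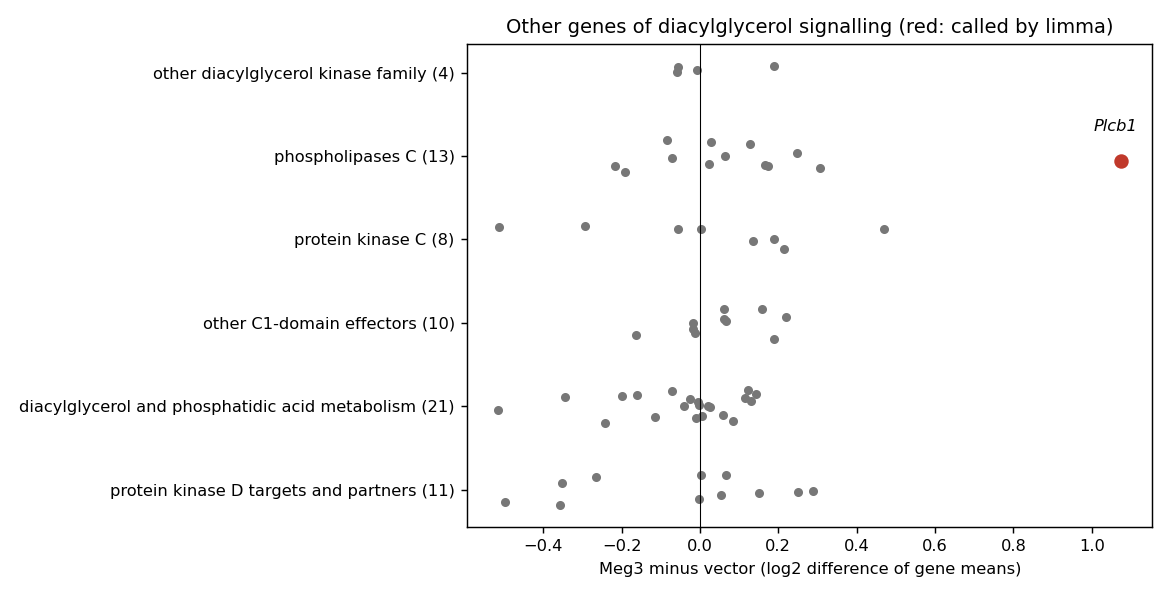
Differences (Meg3 minus vector, log2) of 67 other genes of diacylglycerol signalling, 1 point a gene, in 6 lists with the number measured in brackets. The red point is the gene called by limma, Plcb1 at 1.08, and the grey points lie between -0.51 and 0.47.

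Without vector replicate 2 and Meg3 replicate 1, 5 of the 67 were called by limma. Plcb1 was higher (0.86, SE 0.10, adjusted p = 0.00113), and 4 were lower. These were Prkcd (-0.58, SE 0.12, adjusted p = 0.0193), Pld1 (-0.61, SE 0.13, 0.0243), Plpp2 (-0.47, SE 0.11, 0.0338) and Cttn (-0.50, SE 0.10, 0.0156). In that setting 1111 of all 20416 genes were called against 136 with 6 arrays. Leaving out the arrays that stood apart narrows the spread within groups, as for Prkcd, whose SE was 0.24 with 6 arrays. Nothing about the pathway is therefore read from the 5.

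Genes beside the members on their chromosomes were mostly level. The 10 nearest measured genes on each side of the 10 members made 194 different array symbols, 2 of which now share a gene name, for 193 genes. A gene after a member is one with a higher start coordinate, whatever the strand. Prkd1 and Prkd3 are on the minus strand. By limma 2 of the 194 were called (1.03%, beside 0.666% of all genes), each beside a different member. Dgkb and Prkd1 lie on chromosome 12, as does Meg3, and Prkd3 lies on chromosome 17. The 20 neighbours of Dgkb had a median difference of -0.04 and those of Prkd1 one of -0.07.

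Coch, the fourth gene after Prkd1, which encodes a secreted protein of the inner ear, was 3.66-fold higher (log2 difference 1.87, SE 0.13; limma adjusted p = 0.00154). It read 9.23, 9.29 and 8.96 in the Meg3 cultures, against 7.34, 7.20 and 7.32 in the vector cultures, and was called in all 6 fits without 1 array. Qpct, the next gene after Prkd3, which encodes glutaminyl cyclase, was 1.95-fold lower (-0.96, SE 0.14; limma adjusted p = 0.0285). It read 5.42, 5.05 and 5.12, against 6.30, 6.02 and 6.15, all under 6.66, the median gene mean. Qpct was called without vector replicate 2 (adjusted p = 0.0121) or Meg3 replicate 1 (0.0399) and lost without vector replicate 1 (0.126) or 3 (0.144) or Meg3 replicate 2 (0.177) or 3 (0.205). Its brightest probe set differed by -0.30. The other 19 neighbours of Prkd3 were not called, and the median of the 20 was -0.03.

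The genes most like Dgkb over the 6 arrays were Coch, Cadm2 and Acvr1c, with Pearson r of 0.997, 0.997 and 0.996. Those most like Prkd3 were Frrs1, Prom1 and Mia2, with r of 0.996, 0.996 and 0.991. Cadm2, a synaptic adhesion gene, differed by 0.80 (SE 0.11) and Acvr1c, an activin receptor gene, by 0.83 (SE 0.11). Frrs1 differed by -1.11 (SE 0.13), the pentaspan membrane protein gene Prom1 by -0.56 (SE 0.11) and Mia2 by -0.55 (SE 0.12). With 6 arrays in 2 clones, r is set largely by the gap between the clones: among 9217 genes compared, 54 had r over 0.95 with Dgkb and 93 with Prkd3.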

How the data were processed

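Per the submitters' processing notes the deposited log2 values, 1 per probe set, came from RMA. The notes name Partek too. Versions of both, and a genome build, were not given in the sources used here. In all, the table held 241419 probe sets on 6 arrays, of which 212097 have exactly 1 symbol in the array annotation, 4475 several and 24847 none. A gene's value is the mean log2 value of its probe sets with 1 symbol (20416 genes). Of these symbols, 17621 matched the GRCm38.p6 gene table directly, 2742 through a synonym and 53 not. That table gave chromosome order only. The Meg3 clone was set against the vector clone by limma 3.58.1 under R 4.3.3 (lmFit and eBayes, two-sided, without covariates). Adjusted p-values are Benjamini-Hochberg values over all genes, or all probe sets, and a feature was called under 0.05. Only the limma step was tried on simulated data. The simulated arrays had independent noise and none stood apart, so that trial does not cover arrays like vector replicate 2. An exact permutation test of 3 against 3 arrays cannot go below p = 0.1. Precision is limited by the number of arrays.

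Same-numbered cultures were not treated as pairs in the main fit. Their deviations correlated at -0.61, -0.63 and 0.28. Those of differently numbered cultures ran from -0.54 to 0.65, the highest for Meg3 replicate 1 with vector replicate 2, the arrays that stood apart. With 3 cultures a clone, such values cannot exclude a batch shared by number.

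The members and lists were chosen with earlier results of these data known. The naming rule took all members and Meg3. From each pathway list it took up to 2 called genes in each direction, or the 2 with the widest differences where none was called. It also took the called neighbours and the 3 genes most correlated with Dgkb and with Prkd3 among those above the median of all genes, without predicted or clone-derived names. Alternatives were leaving out each array, leaving out both arrays that stood apart, a replicate block, other centring, repeated quantile normalization, a filter on the dimmest 30% of genes, other summaries of probe sets, and eBayes with trend and robust estimation.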

Additional observations from a re-analysis of the deposited data

How the results depend on the processing

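The differences of Meg3, Dgkb and Prkd1 kept their sign under all 15 alternatives, and that of Prkd3 under all but 1. With all arrays, 3 members, 1 pathway gene and 2 neighbours were called by limma, beside 136 of all 20416 genes. So were 2 member probe sets, beside 0.00377% of all 212097 probe sets. Without 1 array the counts ran from 1 to 4 for members, 0 to 1 for pathway genes and 1 to 3 for neighbours, and were 0 for member probe sets. Over all 20416 genes those fits called 22 to 349. The differences then ran from 1.55 to 1.88 for Meg3, 1.65 to 1.80 for Dgkb, 0.86 to 1.00 for Prkd1 and -1.88 to -1.60 for Prkd3. Without vector replicate 2 and Meg3 replicate 1 together, 5 members, 5 pathway genes, 7 neighbours and 0 member probe sets were called. In that setting 1111 of all 20416 genes were called, so nothing is read from those counts. The main fit did not treat same-numbered cultures as pairs. With the replicate block, 2 members, 0 pathway genes, 1 neighbour and 0 member probe sets were called, beside 30 of all genes. Prkd1 (0.92) lost its call there. Centring the arrays, or quantile normalization again, gave 4 member probe sets each. Without the dimmest 30% of genes 1 neighbour was called, since Qpct was left out, beside 127 of the 14291 genes kept.

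The median of probe sets gave 2 members, 0 pathway genes and 1 neighbour, beside 58 of all genes. It ended the limma calls of Meg3 (3.33, adjusted p = 0.0629) and Prkd1 (1.01). The brightest probe set gave 0 members, 0 pathway genes and 1 neighbour, beside 40 of all genes. Under it Meg3 (2.02, adjusted p = 0.241), Dgkb (1.51) and Prkd1 (0.88) were not called, and Prkd3 turned to 0.14. Bright probe sets alone gave 2 members, beside 102 of the 14676 genes that had them, and Prkd1 (0.83) was not called. The cause of these changes was not tested. All genes called ranged from 22 to 1111. Dim signal limits Dgki above all, with 3 of 34 probe sets above the median of all probe sets. It also bears on Prkd2 (3 of 17 above it), Prkd3 (7 of 20), Dgkz (13 of 35) and Dgkb (12 of 28).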
